A study of Mus musculus with 16 samples.

Results

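The input libraries of a Sox2 RNA immunoprecipitation series in mouse embryonic stem cells (mESC) were compared by the crosslinker used on the cells. All libraries labelled as input were taken, 4 from formaldehyde-crosslinked cells (formaldehyde input) and 4 from cells irradiated with ultraviolet light (UV input), which are 8 of the 16 libraries of the series; replicates are numbered 3 to 6 in each group. The cells of both groups were male mESC kept on gelatin in serum medium with 1000 U/mL of the cytokine LIF and, to hold the naive state, 1 uM of the MEK inhibitor PD0325901 and 3 uM of the GSK3 inhibitor CHIR99021, and no other treatment or genetic change is given by the labels. Input is the sonicated and pre-cleared lysate set aside before Sox2 was captured, after which crosslinks were reversed, RNA was purified and ribosomal RNA was depleted. Each library came from a plate of its own, so that formaldehyde and UV were never applied to the same plate, and crosslinker, plate and handling (formaldehyde at room temperature, UV on ice-cold cells) cannot be told apart in any comparison below. Nothing in the sources used here says that the plates were separate passages or days, and p-values measure the spread between these plates.

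Naive mESC stand for the epiblast of the blastocyst before implantation. LIF acts through the kinase JAK and the transcription factor STAT3, MEK inhibition silences FGF-ERK signalling, and GSK3 inhibition stabilises beta-catenin and so turns on Wnt target genes, which together hold the network of Oct4 (Pou5f1), Nanog, Sox2, Klf4, Esrrb and Tfcp2l1. Formaldehyde joins proteins to nucleic acids and to each other, whereas short-wave ultraviolet light joins nucleic acids mainly to proteins in direct contact, and both leave an input that should be read as the RNA that survives lysis, clearing and reversal rather than as the RNA of an untouched cell.

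Counts are unique molecular identifiers (UMIs), each standing for 1 captured RNA fragment, summed over whole gene bodies with introns included. Totals were 13627606 to 15381686 UMIs in the formaldehyde inputs and 12456298 to 13828610 in the UV inputs. Levels are given as CPM, the UMIs of a gene scaled to the total of its library, and levels of different genes are compared only after division by the gene-body length. UV inputs resembled each other more than formaldehyde inputs did, with a common dispersion of 0.00166 against 0.0216 (edgeR). Formaldehyde input 4 stood apart from the other libraries of its group: the chi-square per degree of freedom between a pair of libraries was 41.0 to 51.9 for its pairs, 3.17 to 13.5 for the other formaldehyde pairs and 1.52 to 3.41 for UV pairs. Results that rest on it are given with and without it, except the bins of gene length, exon share and base composition, which use all libraries.

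The libraries carried the RNA of naive mESC. Of the 15 core pluripotency factors listed, 14 averaged 100 UMIs or more, and their median level was 14.5 CPM per kb of gene body, against 0.429 for the 17915 protein-coding genes with at least 1 UMI. All 19 naive pluripotency markers were detected, with a median of 7.03 CPM per kb and a range from 1.78 for Gbx2 to 38.6 for Klf2. Formative and primed markers, which appear as cells leave the naive state, had a median of 0.756 CPM per kb (16 genes). They ranged from 0.0107 for Fgf5 to 8.66 for Zic2.

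Most lineage markers were low in the same libraries. Mesendoderm markers had a median of 0.0291 CPM per kb, with 8 of 10 under a mean of 10 UMIs per library. Neuroectoderm markers (median 0.0278 CPM per kb over 6 genes, 4 of them under 10 UMIs), trophectoderm markers (0.0509, 3 of 8) and fibroblast feeder markers (0.00134, 6 of 10) had low medians too. The highest member of each of these lists was above the protein-coding median of 0.429 CPM per kb. These were the mesendoderm marker Gsc (0.69), the neuroectoderm marker Nes (1.62), the trophectoderm marker Tfap2c (6.08) and the fibroblast marker Fbln1 (0.979). Primitive endoderm markers had a median of 0.0681 CPM per kb (3 of 9 under 10 UMIs) and ranged up to 14 CPM per kb for Sparc, which encodes a matrix protein. The 11 markers of rare 2-cell-like cells all stayed under a mean of 10 UMIs. In bulk lysates fewer cells of a type and less RNA per cell cannot be told apart.

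Sox2 itself was listed at 0 UMIs in all 8 inputs. The gene (chr3:34650405-34652461, plus strand, mm10) lies wholly inside the long noncoding gene Sox2ot (chr3:34104270-34682619, plus strand), which had 682 to 974 UMIs in the formaldehyde inputs and 749 to 907 in the UV inputs. The same held for other nested genes: all 385 protein-coding genes that lie inside another gene on the same strand were at 0 in every input, as were all 1018 miRNA and all 630 snoRNA genes so placed. Protein-coding genes inside a gene on the other strand were at 0 in 27.2% of cases and those inside no other gene in 17%. Genes nested on the same strand are therefore left without a value here, among them Sox2 and the neuroectoderm markers Sox1 and Tubb3 in the medians given above.

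The lysates differed in many genes. Of 21637 genes tested, 2414 (11.2%) were higher and 2161 (9.99%) lower in formaldehyde input than in UV input, at a fold above 1.5 and an adjusted p below 0.05 (edgeR quasi-likelihood test, Benjamini-Hochberg over all genes). In either direction 21.1% were called, the CPM of the groups did not overlap for 38.6%, and log2 fold changes, formaldehyde minus UV throughout, had a median of 0.04 over the genes tested. Counts of called list members below are to be read beside these shares. Most differences were modest, with a median log2 fold change of 0.90 among the higher and -0.97 among the lower genes, and 234 and 181 genes passed a fold of 4. The number of genes with at least 1 UMI did not differ beyond its spread after every library was thinned to 12456298 UMIs: 22647.0 ± 308.0 against 22520.2 ± 40.3 (SD, n = 4 each; exact permutation test, two-sided, p = 0.743).

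The split of the calls by direction depended on 2 abundant RNAs and on gene structure. Gm26917 and Gm42418 are adjacent genes that GENCODE annotates as lincRNA (chr17:39843013-39846341 and chr17:39846958-39848788, plus strand). RefSeq gives Gm42418 as a synonym of Rn18s-rs5, a pseudogene related to ribosomal RNA, and the libraries were depleted of ribosomal RNA, so the UMIs counted for the pair may be remaining ribosomal RNA, which was not tested. Gm26917 alone held 61199, 54565, 84937 and 61041 CPM in formaldehyde inputs 3 to 6 and 122490, 122900, 122940 and 120320 CPM in UV inputs 3 to 6. All UV inputs were above all formaldehyde inputs, with a log2 fold change of -0.90 ± 0.10 (SE; edgeR adjusted p = 6.29e-06). Gm42418 went the same way at -0.48 ± 0.09, short of the fold threshold. When the library size excluded this pair, 1819 genes were higher and 2780 lower, so that 39.6% rather than 52.8% of the calls were higher in formaldehyde. Removing the trend on gene length or on exon share turned the split as far, to 37.6% and 40.9% higher (1455 higher and 2414 lower, and 1464 and 2116).

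**Figure D1:**
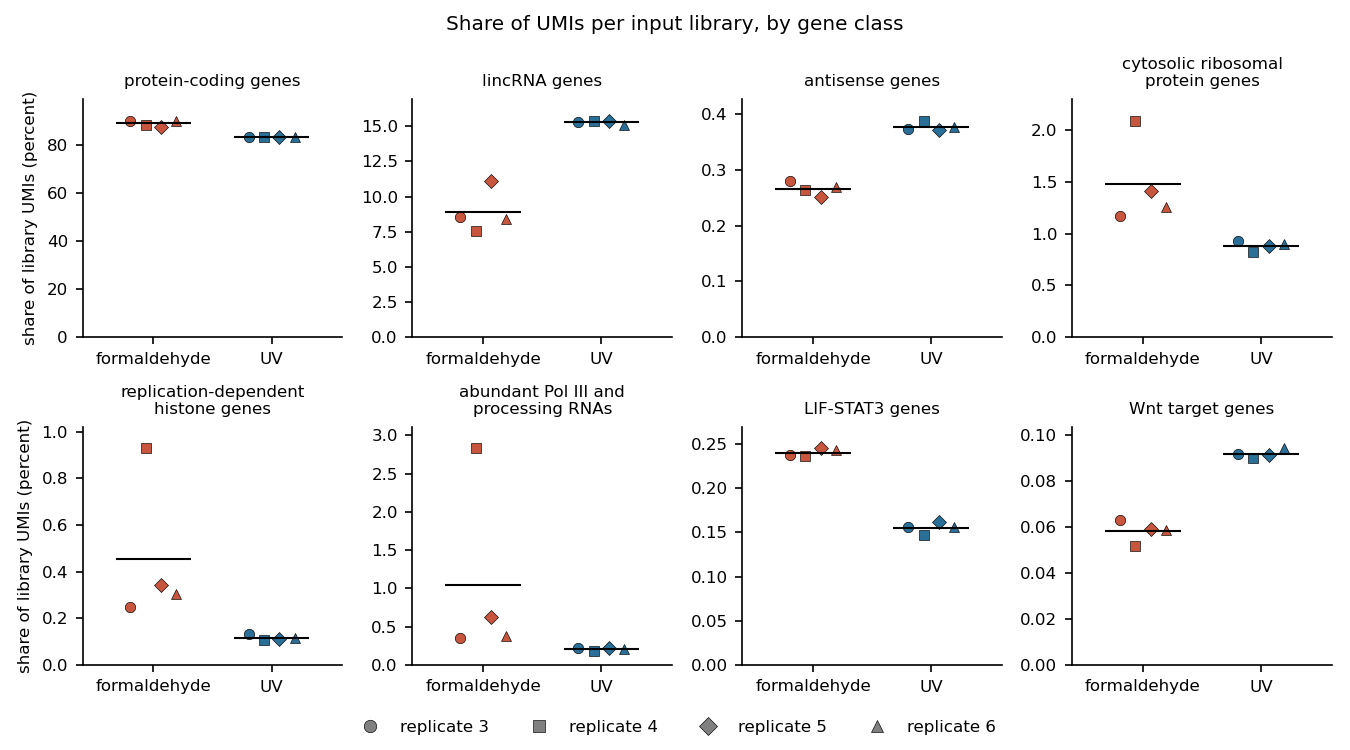
Share of library UMIs (percent, axes from 0) taken by 8 classes of genes in each of the 8 input libraries, formaldehyde in red and UV in blue, with the marker shape giving the replicate number and the line the group mean. Protein-coding genes took 87.3% to 90.1% in formaldehyde and 83.1% to 83.4% in UV, lincRNA genes the reverse, and formaldehyde input 4 is the high point for ribosomal protein genes, histones and Pol III RNAs.

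The shares of RNA classes differed between the lysates, mostly through Gm26917 and Gm42418. Protein-coding genes made up 87.3% to 90.1% of UMIs in formaldehyde and 83.1% to 83.4% in UV, and lincRNA genes 7.58% to 11.1% and 15.1% to 15.4%, of which the pair alone held 6.49% to 10% and 13.7% to 14%. With the pair left out of the total, a step added after seeing the data, protein-coding genes took 94.6% to 97.2% in formaldehyde and 96.6% to 96.7% in UV, which overlap, and the other lincRNA genes 1.17% to 1.32% and 1.59% to 1.66%, which do not. Gene by gene, lincRNA genes leaned to UV: 327 of 1576 lincRNA genes tested were lower in formaldehyde and 41 higher (median log2 fold change -0.48). Antisense genes (245 of 1284 lower, 44 higher, median -0.31) and processed transcripts (128 of 450 lower, 9 higher, median -0.50) leaned the same way, against 9.99% lower and 11.2% higher among all genes. Of 15751 protein-coding genes 1995 were higher and 1263 lower (median 0.06), a lean that turned without Gm26917 and Gm42418 in the library size (1472 higher, 1727 lower, median -0.04). Processed pseudogenes, short copies of spliced mRNAs that share reads with their parent genes, gave 222 of 1437 higher and 44 lower (median 0.89), but 33 higher and 137 lower with the length trend removed and 57 and 98 with the exon share trend removed, and their values are uncertain.

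The difference followed the architecture of the gene. Among 12156 protein-coding genes averaging at least 20 UMIs, the median log2 fold change went from 1.70 for genes under 1 kb (55 of 62 called higher) through 0.69 at 1 to 3 kb, 0.39 at 3 to 10 kb, 0.11 at 10 to 30 kb and -0.03 at 30 to 100 kb, down to -0.44 at 300 to 1000 kb and -0.46 at 1000 kb or more, where 0 of 44 genes were higher and 16 lower. Replication-dependent histone genes, described below, are short, with a median gene body of 0.54 kb. Their own median of 1.90 was 1.37 without formaldehyde input 4, and the bins were not taken without that library. The share of a gene body that is exon ordered the genes as well, from a median of -0.45 where under 2% was exon to 0.43 where 40% or more was. Across these genes the Spearman correlation with the log2 fold change was -0.46 for length and 0.47 for exon share, 0.25 for the GC content of the transcript and -0.18 for its T content; genes share the same 8 libraries and are not independent, and length and exon share were themselves tied at -0.85.

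**Figure D2:**
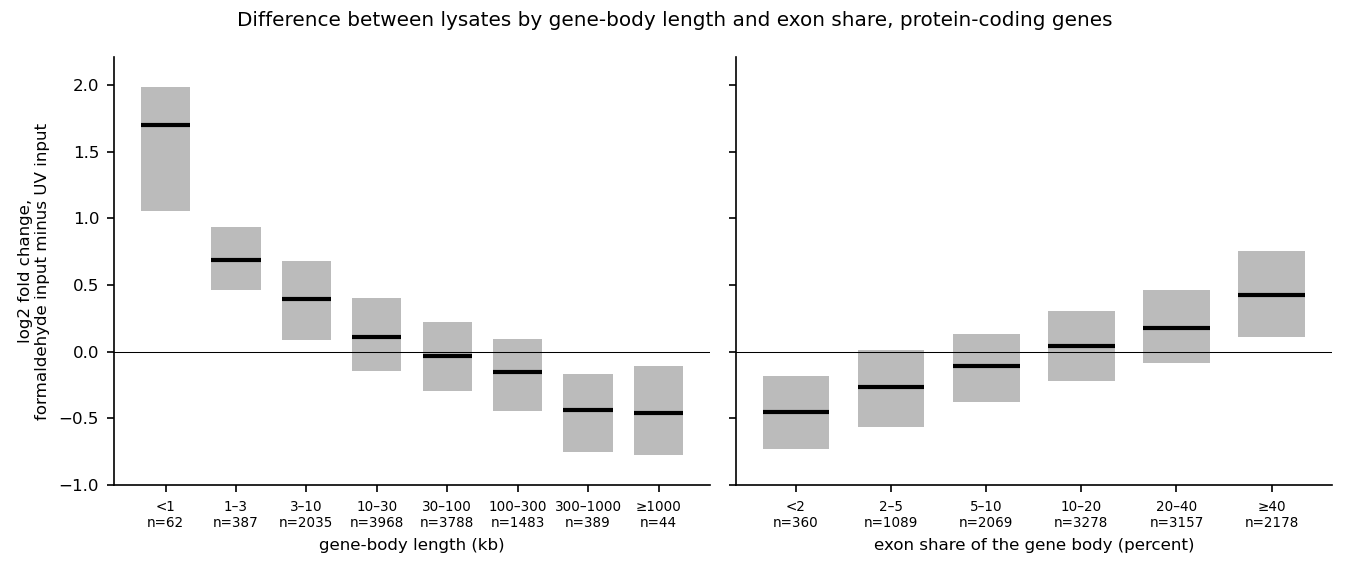
Log2 fold change (formaldehyde input minus UV input) of protein-coding genes averaging at least 20 UMIs, by bin of gene-body length in kb and of the exon share of the gene body in percent, with the black line at the median, the grey bar from the lower to the upper quartile, and the number of genes under each bin. The median descends from 1.70 for the shortest to -0.46 for the longest genes and climbs from -0.45 to 0.43 with exon share.

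Exon share ordered the genes when length was held in a narrow range. In the 3968 protein-coding genes of 10 to 30 kb the median was -0.29 where under 5% was exon (36 genes) and 0.16 where 20% or more was (2422 genes). In those of 30 to 100 kb the corresponding medians were -0.27 (310 genes) and 0.05 (597 genes). With exon share held, in bins chosen after seeing the data, length ordered the genes unevenly. At 10 to 20% exon the median was 0.21 under 10 kb (138 genes) and 0.06, 0.03 and 0.02 in the bins of 10 to 30, 30 to 100 and 100 to 300 kb. At 5 to 10% exon those 3 bins were at -0.10, -0.11 and -0.11, and genes of 300 kb or more at -0.33 (30 genes). At 20 to 40% exon the median went from 0.39 under 10 kb (664 genes) to 0.16 at 10 to 30 kb and 0.06 at 30 to 100 kb (576 genes). Base composition moved the medians within the length ranges from 0.01 under 45% GC to 0.19 at 55% or more for genes of 10 to 30 kb, and from -0.09 to 0.05 for genes of 30 to 100 kb.

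Summed over genes, the shift in length was small next to the whole library. Nuclear protein-coding genes under 3 kb supplied 1.58%, 3.06%, 2.07% and 1.74% of the protein-coding UMIs in formaldehyde inputs 3 to 6 and 1.06% to 1.21% in UV. Genes of 300 kb or more supplied 6.33%, 4.98%, 5.52% and 6.055% in formaldehyde inputs 3 to 6 and 7.56% to 7.98% in UV. Formaldehyde input 4 was thus at the extreme of its group in both. Of 226 protein-coding genes of 500 kb or more, 68 were lower and 2 higher in formaldehyde, beside 9.99% and 11.2% of all genes (median -0.45). Their median became 0.03 once the trend on length was removed from the fit, which by its construction takes away what the list was chosen on.

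Several long genes marked the UV lysate. Pdgfd (chr9:6168584-6378850, plus strand), which encodes a platelet-derived growth factor and of which 1.5% is exon, had 4.42, 5.06, 4.41 and 6.90 CPM in formaldehyde inputs 3 to 6 and 25.1, 32.7, 26.6 and 25.8 CPM in UV inputs 3 to 6. The groups were far apart, at a log2 fold change of -2.41 ± 0.14 (SE; edgeR adjusted p = 3.25e-08). Tox, which encodes an HMG-box nuclear factor and spans 305205 bases, was at 4.36 to 6.70 CPM and 20.5 to 32.03 CPM, and the potassium channel gene Kcnh8 at 7.09 to 10.6 and 33.9 to 40.7 CPM. Neither gene overlapped between the groups (log2 fold changes -2.33 ± 0.16 and -2.09 ± 0.12). The axonemal dynein gene Dnah7a (-1.86) and the semaphorin gene Sema3e (-1.75) stood among the 8 protein-coding genes farthest below UV at an average of at least 100 UMIs, and at that level 7.35% of genes were lower and 13.6% higher.

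Lef1, the transcription factor that binds beta-catenin and is itself a Wnt target, was also among those 8. It had 26.6, 17.2, 22.6 and 22.5 CPM in formaldehyde inputs 3 to 6 and 80.4, 75.7, 84.7 and 84.0 CPM in UV inputs 3 to 6. All formaldehyde values lay under all UV values (log2 fold change -1.87 ± 0.11, edgeR adjusted p = 3.25e-08). Lef1 spans 113886 bases of which 7.72% is exon, and the difference held with the length trend removed.

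Among 21 nuclear and imprinted lncRNAs tested, 4 were higher and 4 lower, beside 11.2% and 9.99% of all genes (median -0.12). Neat1, the scaffold of paraspeckles, had 115, 86.3, 109 and 110 CPM in formaldehyde inputs 3 to 6 and 262, 271, 245 and 255 CPM in UV inputs 3 to 6. Its groups were clearly separate (log2 fold change -1.30 ± 0.08, edgeR adjusted p = 7.95e-08). Malat1, the RNA of nuclear speckles and the most abundant of the list per length at 738 CPM per kb, lay between 4593 and 5398 CPM in formaldehyde and between 5189 and 5544 CPM in UV, with overlapping groups (-0.12 ± 0.06, adjusted p = 0.166). H19, an imprinted RNA of the growth-control cluster it shares with Igf2, went the other way at 2.20 to 4.34 against 0.4003 to 0.868 CPM (2.53 ± 0.29, adjusted p = 6.6e-06), from a mean of 27.9 UMIs per library. The naive-state lincRNA Lncenc1 was slightly lower in formaldehyde (-0.27 ± 0.07, adjusted p = 0.00436, under the fold threshold).

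Host RNAs of small nucleolar RNAs, which are spliced but hardly translated, had a list median near 0 (-0.02), although a median of 91.6% of their gene bodies is exon. Of 16 tested 0 were higher and 4 lower, beside 11.2% and 9.99% of all genes. The median was -0.21 without formaldehyde input 4, and -0.44 and -0.36 (5 lower each) with the trend on length or on exon share removed. Gas5 was at 156 to 246 CPM in formaldehyde and 182 to 205 in UV, with overlapping groups. Mir17hg, the primary transcript of the miR-17-92 cluster, is counted in this list although it hosts microRNAs rather than small nucleolar RNAs. It was lower in formaldehyde (20.5 to 31.8 against 52.9 to 55.9 CPM, log2 fold change -1.06 ± 0.11). Snhg14 was lower too (-0.88 ± 0.12), but its call did not hold with the trend on length, GC content or exon share removed. Of 19 genes known for detained introns, which hold partly spliced RNA in the nucleus, 1 was called, beside 21.1% of all genes. This was the kinase gene Clk4 (lower, -0.69 ± 0.08, under the fold threshold at -0.52 with the GC trend removed). The list's median was 0.08 (-0.12 with the length trend removed, -0.30 with the exon share trend removed and -0.025 without Gm26917 and Gm42418 in the library size). Its most abundant members, the splicing regulator Rbm39 (-0.14) and the helicase Ddx5 (0.26), were not called.

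Short mRNAs made by the replication-dependent histone genes were higher in formaldehyde almost throughout. These genes have no introns, and their mRNAs end in a stem-loop in place of a poly(A) tail, which the protein SLBP binds. Of 59 tested, 56 were higher in formaldehyde and 0 lower, beside 11.2% and 9.99% of all genes, with a median log2 fold change of 1.90. The stem-loop is shown for 3 members among the highest in formaldehyde because it is the feature that sets this class of mRNA apart; capitals mark the match to the histone stem-loop consensus in the transcript (GENCODE vM21, sense strand only searched).
Hist1h4f: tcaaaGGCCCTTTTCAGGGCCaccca
Hist1h4c: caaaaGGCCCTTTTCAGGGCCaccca
Hist1h2bb: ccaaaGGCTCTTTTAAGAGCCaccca

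In the annotated transcripts the match ends 33 bases before the end for Hist1h4f and 23 for Hist1h2bb, but 454 for Hist1h4c, whose annotation runs well past it. The consensus was found in transcripts of 36 of the 59 histone genes (61.0%) and of 39 of all 21598 tested genes with a transcript sequence (0.181%). The median log2 fold change was 1.91 for the 36 histone genes with the match and 1.77 for the 23 without. Formaldehyde input 4 carried much of the size of the histone difference but not its calls. Histones took 0.247%, 0.928%, 0.344% and 0.302% of UMIs in formaldehyde inputs 3 to 6 and 0.106% to 0.131% in UV. Without formaldehyde input 4 the number higher was 56 and the median 1.37. Histone genes are near-identical copies of each other, and reads could be split among them or left out, so that single histone genes are uncertain.

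Hist1h1a, a linker histone gene (chr13:23763666-23764406, plus strand), had 217, 526, 261 and 245 CPM in formaldehyde inputs 3 to 6 and 112, 94.4, 89.3 and 97.4 CPM in UV inputs 3 to 6. The lowest formaldehyde value was above the highest UV value (log2 fold change 1.67 ± 0.21, edgeR adjusted p = 1.68e-05; 1.29 without formaldehyde input 4). The H4 gene Hist1h4f had 49.3, 508, 73.5 and 62.2 CPM against 29.1, 20.7, 24.7 and 26.4. Here formaldehyde input 4 alone set most of the fold change of 2.78 ± 0.59, which was 1.29 without it. Hist4h4, another H4 gene, went from 2.98 to 1.27 likewise, and DESeq2 did not call either H4 gene with all libraries in.

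Small RNAs transcribed by RNA polymerase III, together with other abundant short processing RNAs, were higher in formaldehyde as well, but chiefly in input 4. The list took 0.35%, 2.83%, 0.621% and 0.378% of UMIs in formaldehyde inputs 3 to 6 and 0.182% to 0.217% in UV. Of 10 members tested 7 were higher and 0 lower, at a median of 2.64 that became 1.14 without formaldehyde input 4 (6 higher), and 2 and 4 were called with the trend on length or on exon share removed. Rn7sk, the 7SK RNA that holds the elongation factor P-TEFb (chr9:78175303-78175633, minus strand), had 3466, 27880, 6155 and 3749 CPM in formaldehyde inputs 3 to 6 and 2119, 1794, 2141 and 2041 CPM in UV inputs 3 to 6. The groups did not overlap (log2 fold change 2.35 ± 0.50, edgeR adjusted p = 0.00145; 1.14 without formaldehyde input 4). Rpph1, the RNA of ribonuclease P, spanned 0.585 to 35.3 CPM in formaldehyde and overlapped with UV (0.401 to 1.06).

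Bc1, a short RNA polymerase III transcript derived from a tRNA gene, is printed with 2 mitochondrial tRNAs as short RNAs that differed, to show what a measured molecule of this size looks like; capitals mark runs of 8 or more A in Bc1, and no part of the tRNAs is marked (GENCODE vM21, GRCm38).
Bc1, chr7:144914470-144914637, plus strand: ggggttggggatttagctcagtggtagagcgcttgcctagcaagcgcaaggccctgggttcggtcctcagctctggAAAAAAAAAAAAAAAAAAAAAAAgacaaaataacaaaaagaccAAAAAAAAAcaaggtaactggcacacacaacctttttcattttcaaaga
mt-Tt, chrM:15289-15355, plus strand: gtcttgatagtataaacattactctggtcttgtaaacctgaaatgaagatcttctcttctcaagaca
mt-Tp, chrM:15356-15422, minus strand: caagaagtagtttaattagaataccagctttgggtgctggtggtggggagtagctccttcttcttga

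Bc1 had 13.2, 220, 20.9 and 12.8 CPM in formaldehyde inputs 3 to 6 and 7.72 to 8.75 CPM in UV. Formaldehyde input 4 stood far above the others, and the log2 fold change of 3.03 ± 0.77 (edgeR adjusted p = 0.00526) became 0.94 without it and was not called by DESeq2 or with the length trend removed. The mitochondrial tRNAs mt-Tt (67 bases, for threonine) and mt-Tp (for proline) lie end to end on opposite strands. mt-Tt had 2.60, 5.91, 1.95 and 2.35 CPM against 0.482, 0.480, 0.757 and 0.579, and mt-Tp 3.90, 7.10, 4.99 and 3.38 CPM against 1.365, 2.16, 1.74 and 1.59. Both were above UV in every formaldehyde input (2.46 ± 0.38 and 1.49 ± 0.24). Of 12 mitochondrial tRNAs tested 6 were higher and 0 lower, from few UMIs (a mean under 10 for 17 of the 22 listed), and none was called with the length trend removed.

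Longer mitochondrial RNAs differed less. The mRNA mt-Co1, for a subunit of cytochrome c oxidase, had 4556 to 7585 CPM in formaldehyde and 5282 to 6231 CPM in UV, and mt-Nd1, for a subunit of complex I, 1530 to 3223 and 2441 to 2706 CPM. Both overlapped between groups (log2 fold changes 0.09 and -0.07, edgeR adjusted p = 0.56 and 0.735), with formaldehyde input 4 the lowest of the 8 libraries in each. The complex I subunit genes mt-Nd5 and mt-Nd6 were higher in every formaldehyde input but under the fold threshold (0.28 ± 0.08 and 0.31 ± 0.10, edgeR adjusted p = 0.0131 and 0.0212). Among the 8 mitochondrial mRNAs tested only mt-Nd3 was called (higher, 1.70 ± 0.30, from a mean of 13.9 UMIs, not called with the length trend removed), and both mitochondrial rRNAs, mt-Rnr1 and mt-Rnr2, overlapped between groups (0.25 and -0.34). With the length trend removed the median of the mRNAs went from 0.07 to -0.59 (0 higher, 4 lower) and that of the tRNAs from 1.21 to -0.17.

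**Figure D3:**
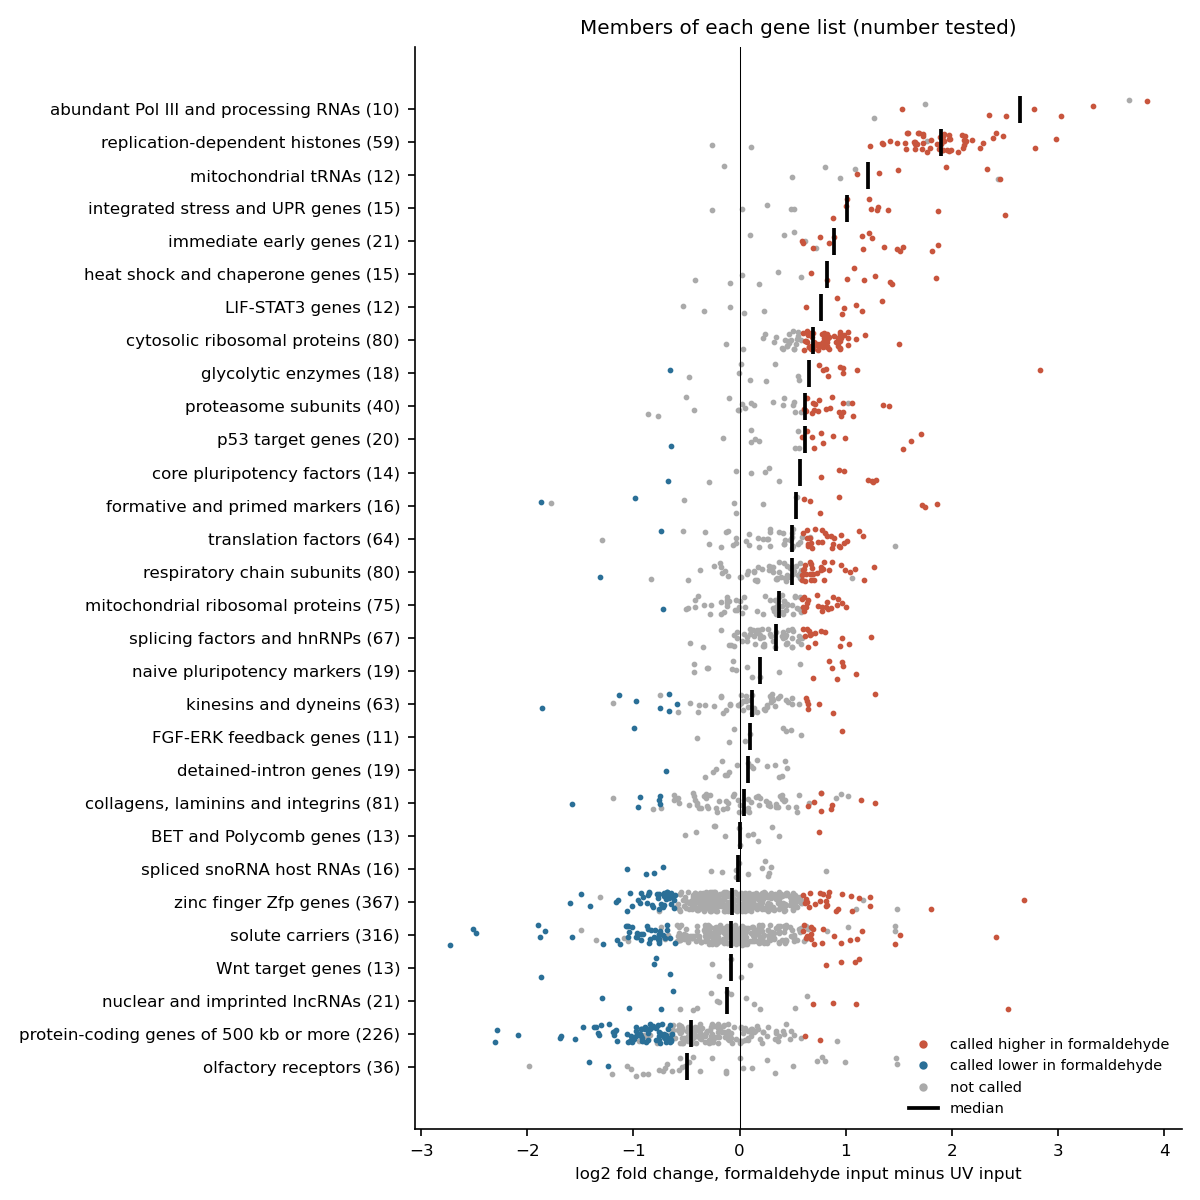
Log2 fold change (formaldehyde input minus UV input) of every tested member of each gene list with 10 or more members tested, ordered by the list median (black line), with red points called higher, blue points called lower and grey points not called. Histones and Pol III RNAs lie farthest to the right, at medians of 1.90 and 2.64, and olfactory receptors and genes of 500 kb or more farthest to the left, at -0.49 and -0.45.

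mRNAs of the housekeeping machinery leaned to formaldehyde, where 11.2% of all genes were higher and 9.99% lower. Of 80 cytosolic ribosomal protein genes tested 57 were higher and 0 lower (median log2 fold change 0.69); without formaldehyde input 4, 22 were higher (median 0.49), and 9 and 14 were with the trend on length or on exon share removed. Their share of UMIs was 1.17%, 2.09%, 1.41% and 1.26% in formaldehyde inputs 3 to 6 and 0.826% to 0.924% in UV. Rpl4 had 800, 1271, 1032 and 964 CPM in formaldehyde inputs 3 to 6 and 545, 476, 487 and 502 CPM in UV inputs 3 to 6. The groups did not overlap (1.02 ± 0.11, edgeR adjusted p = 3.28e-06). Rps14 owed much of its 1.18 ± 0.27 to formaldehyde input 4 (0.63 without it).

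Translation factors (25 of 64 higher, 1 lower, median 0.50), proteasome subunits (21 of 40 higher, 0 lower, 0.62), respiratory chain subunits encoded in the nucleus (29 of 80 higher, 1 lower, 0.49) and mitochondrial ribosomal proteins (20 of 75 higher, 1 lower, 0.37) leaned to formaldehyde as well. Without formaldehyde input 4 the numbers higher were 20, 14, 12 and 12, and the median of the respiratory chain subunits was 0.26. With the length trend removed the numbers higher were 13, 13, 6 and 1, with the exon share trend removed 11, 15, 17 and 4, and without Gm26917 and Gm42418 in the library size 17, 16, 15 and 13. Eef1a1, which brings aminoacyl-tRNA to the ribosome, was at 2020 to 3492 CPM in formaldehyde and 1066 to 1263 in UV (1.16 ± 0.12), the ATP synthase genes Atp5a1 and Atp5b at log2 fold changes of 1.26 and 1.17, and the proteasome gene Psmd2 at 1.35. Mrps28, with 0.643% of 121773 bases in exons, was lower (-0.72 ± 0.09; -0.11 with the exon share trend removed), and the proteasome gene Psmd14, with 3.18% of 88683 bases in exons, was at -0.43 ± 0.07, under the fold threshold.

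Glycolytic enzymes followed, with 9 of 18 higher and 1 lower, beside 11.2% and 9.99% of all genes (median 0.66). With the exon share trend removed 6 were higher and 0 lower. Gapdh, often used as a reference gene, had 259, 328, 333 and 299 CPM in formaldehyde inputs 3 to 6 and 170, 148, 150 and 151 CPM in UV inputs 3 to 6. It did not overlap between the groups (0.98 ± 0.08, edgeR adjusted p = 5.34e-07; 0.46 and not called with the exon share trend removed). Hexokinase gene Hk1, of 111054 bases, was higher (1.11 ± 0.11), and the phosphofructokinase gene Pfkp was at -0.48 ± 0.06. Among 67 splicing factors and hnRNPs 15 were higher and 0 lower (median 0.34; 8 higher without Gm26917 and Gm42418 in the library size, and a median of 0.11 with 6 higher and 2 lower with the exon share trend removed), with Prpf8, the core protein of the spliceosome, at 0.95 ± 0.07 and Hnrnpu at 0.41 ± 0.06.

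The core pluripotency factors were divided. Of 14 tested, 7 were higher and 1 lower in formaldehyde, beside 11.2% and 9.99% of all genes. The median was 0.57, and 0.22 and 0.265 with the trend on length or on exon share removed. Pou5f1 (chr17:35506018-35510772, plus strand), the gene of Oct4, had 294, 504, 399 and 332 CPM in formaldehyde inputs 3 to 6 and 172, 159, 161 and 168 CPM in UV inputs 3 to 6. All formaldehyde inputs were above all UV inputs (1.21 ± 0.12, edgeR adjusted p = 2.76e-06; 1.05 without formaldehyde input 4).

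Nanog (chr6:122707489-122714633, plus strand) had 391, 642, 439 and 432 CPM in formaldehyde inputs 3 to 6 against 210, 187, 197 and 201 CPM in UV, again with no overlap (1.26 ± 0.12, edgeR adjusted p = 1.41e-06). The largest difference of the list was that of Trim28, a co-repressor of retroelements and imprinted loci, at 883 to 1091 against 384 to 431 CPM (1.29 ± 0.08). Tdgf1, the Nodal co-receptor Cripto and with Trim28 one of the 2 members highest by CPM, was not called (383 to 510 against 378 to 408 CPM; 0.11 ± 0.08, adjusted p = 0.323).

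Of 19 naive markers 7 were higher and 0 lower, beside 11.2% and 9.99% of all genes (median 0.19). With the length trend removed 4 were higher and 1 lower, and with the exon share trend removed 3 and 0. The median was 0.09 without Gm26917 and Gm42418 in the library size. Tfcp2l1, a transcription factor under LIF and the list's most abundant member by CPM, had 1457, 1598, 1491 and 1502 CPM in formaldehyde inputs 3 to 6 and 773, 721, 823 and 781 CPM in UV inputs 3 to 6. Its values were tight and far apart (0.97 ± 0.06, edgeR adjusted p = 7.28e-08), in a gene of 57224 bases. Klf4 had 205, 121, 220 and 218 CPM against 97.6, 81.5, 90.4 and 87.4 CPM. Here formaldehyde input 4 was the lowest of its group, and the log2 fold change of 1.096 ± 0.144 was 1.26 without it. The adhesion gene Jam2 was slightly lower (-0.31 ± 0.07, adjusted p = 0.00385, under the fold threshold).

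**Figure D4:**
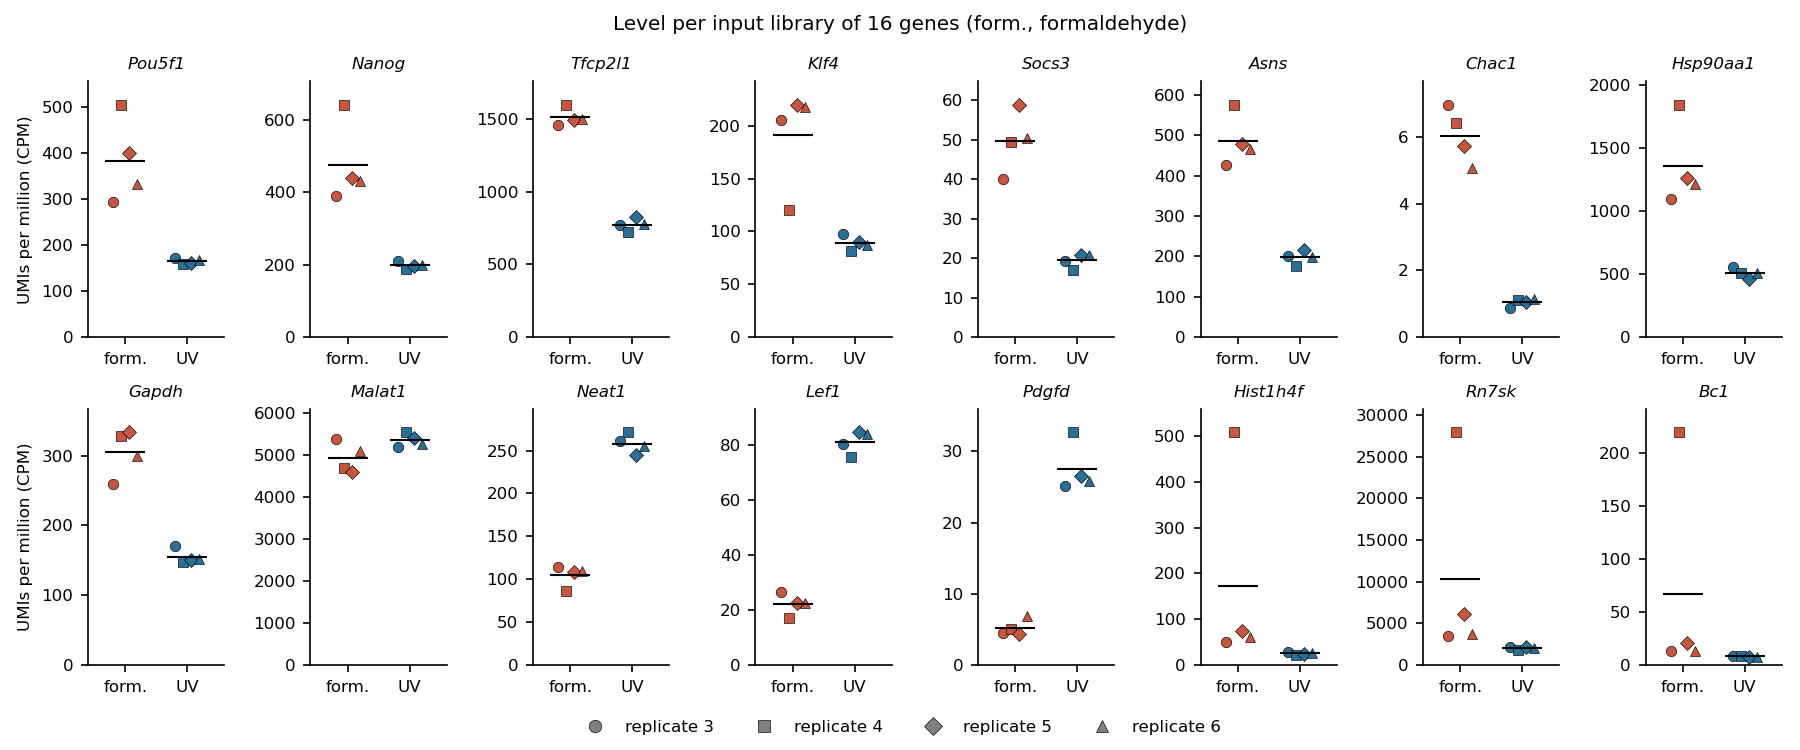
Level in CPM (axes from 0) of 16 genes in each input library, formaldehyde in red and UV in blue, with marker shapes for replicates 3 to 6 and lines at the group means. Pou5f1, Nanog, Tfcp2l1, Asns and Gapdh are above UV in all 4 formaldehyde inputs, Neat1, Lef1 and Pdgfd are below UV in all 4, Malat1 overlaps, and Hist1h4f, Rn7sk and Bc1 are highest in formaldehyde input 4.

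Genes of the LIF-STAT3 pathway leaned to formaldehyde as a list. Of 12 tested 7 were higher and 0 lower, beside 11.2% and 9.99% of all genes (median 0.77). The median was 0.41 (5 higher, 0 lower) with the length trend removed and 0.35 (4 higher, 1 lower) with the exon share trend removed. The list's share of UMIs was 0.236% to 0.245% in formaldehyde and 0.147% to 0.162% in UV, and Tfcp2l1 was the largest part of it (means of 1512 and 774 CPM). The receptor genes Il6st (-0.53, groups not overlapping), Osmr (-0.34) and Lifr (-0.09) were not called. Socs3, the feedback inhibitor of this pathway, had 40.2, 49.4, 58.9 and 50.6 CPM in formaldehyde inputs 3 to 6 and 19.4, 17.1, 20.8 and 20.9 CPM in UV inputs 3 to 6. The lowest formaldehyde value was above the highest UV value (1.34 ± 0.11, edgeR adjusted p = 4.54e-07), and Junb was at 1.16 ± 0.16.

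Of 13 Wnt target genes 4 were higher and 4 lower, beside 11.2% and 9.99% of all genes (median -0.08, and 0.005 without formaldehyde input 4). With the exon share trend removed 3 were higher and 2 lower. Higher were Cdx1, a homeobox gene, at 9.91 to 13.8 against 4.70 to 5.605 CPM (1.12 ± 0.13), and Ccnd2 (1.09), Ccnd1 (0.96) and Sp5 (0.81). Lower, beside Lef1, were Tcf7, a transcription factor of the same family (-0.66 ± 0.15), and the Wnt antagonists Znrf3, a ubiquitin ligase for Frizzled receptors (315 to 395 against 610 to 633 CPM; -0.81 ± 0.07), and Notum, a secreted Wnt deacylase (45.1 to 60.9 against 87.5 to 95.5 CPM; -0.79 ± 0.09). Znrf3 spans 168524 bases and lost its call with the trend on length or exon share removed, whereas Notum, of 7388 bases, kept it.

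FGF-ERK feedback genes, which lie downstream of MEK, had a median level of 0.981 CPM per kb and gave 1 of 11 higher and 1 lower, near the 11.2% and 9.99% of all genes (median 0.09, which turned to -0.01 without Gm26917 and Gm42418 in the library size). The inhibitor genes Spry2 and Spred2 differed in opposite directions: Spry2, of 4873 bases, was at 52.7 to 64.0 against 28.5 to 29.9 CPM (0.97 ± 0.08), and Spred2, of 99652 bases, at 244 to 338 against 602 to 612 CPM (-0.99 ± 0.09). Neither overlapped between groups. Etv5, an ETS factor, was at -0.10 ± 0.07 with overlapping groups.

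Among formative and primed markers 7 of 16 were higher and 2 lower (median 0.53; 4 and 3 without Gm26917 and Gm42418 in the library size or with the length trend removed, and a median of 0.19 with 3 and 3 with the exon share trend removed), with the de novo methyltransferase gene Dnmt3b at 0.66 ± 0.08 (below the fold threshold without Gm26917 and Gm42418 in the library size) and Dnmt3a at 0.22 ± 0.08. The keratin genes Krt18 (3.60 to 4.71 against 0.757 to 1.45 CPM, 1.86 ± 0.21) and Krt8 (3.77 to 5.55 against 0.723 to 1.601 CPM, 1.94 ± 0.22) were higher in every formaldehyde input. So was Gata3, a trophectoderm factor at 1.25 to 2.74 against 0.0723 to 0.5605 CPM (2.79 ± 0.44). Against 11.2% higher and 9.99% lower among all genes, counts of calls were 3 of 6 trophectoderm, 3 of 9 primitive endoderm, 1 of 8 mesendoderm, 2 of 5 fibroblast and 2 of 9 2-cell-like markers higher and 0 lower, and 1 higher and 1 lower of 4 neuroectoderm markers. Few genes stand behind each count, and that of primitive endoderm markers higher went to 1 without Gm26917 and Gm42418 in the library size, 5 with the length trend removed and 4 with the exon share trend removed.

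Dnmt3l, which encodes the catalytically inactive partner of the de novo methyltransferases, had 43.2, 47.2, 51.3 and 32.1 CPM in formaldehyde inputs 3 to 6 and 8.91, 9.29, 8.48 and 10.99 CPM in UV inputs 3 to 6. It was among the 8 protein-coding genes farthest above UV among those averaging at least 100 UMIs (2.20 ± 0.14, edgeR adjusted p = 5.86e-08). Of the 9 genes for DNA methylation enzymes 3 were higher and 0 lower, beside 11.2% and 9.99% of all genes (2 higher without Gm26917 and Gm42418 in the library size or with the GC trend removed), with Uhrf1, the guide of maintenance methylation, at 0.81 ± 0.08 and Tet1, the list's most abundant member by CPM, at 0.06 ± 0.06.

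Stress genes leaned to formaldehyde as lists. Of 15 integrated stress and unfolded protein response genes, 10 were higher and 0 lower, beside 11.2% and 9.99% of all genes. Their median log2 fold change was 1.01 (1.07 without formaldehyde input 4, 0.82 with the length trend removed). C/EBP-ATF elements, which the transcription factor ATF4 can bind, have the letters TGATGNAA. These letters stand on either strand within the RefSeq promoter window (250 bases before to 50 after a start) of 6 of the 15 and of 2.89% of the 13828 tested genes with a window; the list was made of known stress genes, so nothing is read from the difference. The windows of the 5 called members that hold them are shown, with the match in capitals (GRCm38.p6, strand of the gene); a match is a description, not a binding site.
Asns, chr6:7693205-7693252, minus strand: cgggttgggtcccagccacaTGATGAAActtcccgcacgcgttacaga
Chac1, chr2:119351029-119351076, plus strand: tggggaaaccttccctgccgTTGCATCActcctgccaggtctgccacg
Atf3, chr1:191183416-191183463, minus strand: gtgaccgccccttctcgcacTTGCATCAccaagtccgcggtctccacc
Trib3, chr2:152344019-152344066, minus strand: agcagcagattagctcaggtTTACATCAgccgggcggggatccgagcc
Herpud1, chr8:94386297-94386344, plus strand: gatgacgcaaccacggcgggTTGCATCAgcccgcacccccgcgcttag

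Asns, the asparagine synthetase gene, had 425, 576, 478 and 466 CPM in formaldehyde inputs 3 to 6 and 202, 177, 217 and 199 CPM in UV inputs 3 to 6. The groups did not overlap (1.29 ± 0.09, edgeR adjusted p = 1.23e-07). Chac1, a glutathione-degrading enzyme, had 6.96, 6.40, 5.72 and 5.06 CPM against 0.883, 1.12, 1.06 and 1.16 CPM. Every formaldehyde input was above every UV input (2.50 ± 0.18, adjusted p = 1.36e-07). Atf3 was at 1.87 ± 0.27, and Trib3 and Herpud1, named because their windows hold the letters, at 1.40 and 1.01. Slc7a11, the sixth gene with the letters, was at 0.52 and not called. Hspa5, the chaperone BiP of the endoplasmic reticulum and the list's most abundant member per length, overlapped between groups (249 to 382 against 289 to 310 CPM; 0.03 ± 0.10, adjusted p = 0.852).

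Heat shock and chaperone genes gave 9 of 15 higher and 0 lower, beside 11.2% and 9.99% of all genes (median 0.82). Hsp90aa1 had 1098, 1843, 1260 and 1217 CPM in formaldehyde inputs 3 to 6 and 553, 510, 465 and 508 CPM in UV inputs 3 to 6. It was higher in every formaldehyde input (1.41 ± 0.13, edgeR adjusted p = 6.76e-07; 1.23 without input 4), and so were its constitutive paralogue Hsp90ab1 (1.01 ± 0.07) and the small heat shock gene Hspb1 (1.44 ± 0.11). Hspa1a, the classical heat-inducible Hsp70 gene, was hardly present (0.422 to 0.881 against 0.0801 to 0.217 CPM, 1.85 ± 0.49, from a mean of 5.13 UMIs) and is uncertain beside its near-identical copy Hspa1b.

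Immediate early genes, which cells transcribe within minutes of a stimulus, gave 16 of 21 higher and 0 lower, beside 11.2% and 9.99% of all genes (median 0.89). The number higher was 13 without formaldehyde input 4, and 10 and 9 with the trend on length or on exon share removed, at medians of 0.64 and 0.515. Most were low. The 2 most abundant members by CPM, Jund (14.9 to 44.9 against 11.9 to 14.3 CPM, 1.25 ± 0.23) and Ier2 (26.9 to 38.1 against 15.7 to 18.95 CPM, 0.89 ± 0.11), have no introns, and Ier2 lost its call with the trend on length or exon share removed. Fos, part of the AP-1 factor, had 0.715, 1.69, 1.09 and 0.954 CPM against 0.482, 0.240, 0.227 and 0.289. It was above UV in each formaldehyde input, from a mean of 9.88 UMIs (1.81 ± 0.39, edgeR adjusted p = 0.00168).

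Targets of p53, the factor that DNA damage activates, leaned to formaldehyde as well. Of 20 tested 11 were higher and 1 lower in formaldehyde, beside 11.2% and 9.99% of all genes (median 0.61). With the length trend removed 7 were higher and 0 lower, and with the exon share trend removed 5 and 0. Plk2, a polo-like kinase, had 21.2, 22.85, 21.8 and 22.5 CPM in formaldehyde inputs 3 to 6 and 7.39, 7.21, 7.57 and 6.65 CPM in UV inputs 3 to 6. All formaldehyde inputs were above all UV inputs (1.61 ± 0.10, edgeR adjusted p = 3.25e-08). Phlda3, an inhibitor of Akt, was at 13.85 to 22.4 against 3.92 to 7.065 CPM (1.71 ± 0.18). Mdm2, the ubiquitin ligase for p53, was at 156 to 180 against 112 to 118 CPM, without overlap but under the fold threshold (0.55 ± 0.07).

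Large gene families of mixed length had medians near 0, and their counts stand beside 11.2% higher and 9.99% lower among all genes. Zinc finger Zfp genes gave 25 higher and 39 lower of 367 (median -0.07), solute carriers 19 and 41 of 316 (-0.08), collagens, laminins and integrins 8 and 6 of 81 (0.04), kinesins and dyneins 7 and 7 of 63 (0.12), and BET and Polycomb genes 1 and 0 of 13 (0.00). The medians of collagens and of BET and Polycomb genes turned below 0 without Gm26917 and Gm42418 in the library size, at -0.06 and -0.10. Collagens, laminins and integrins gave 12 higher and 3 lower with the length trend removed, 9 and 2 with the exon share trend removed and 3 and 8 with the GC trend removed. Kinesins and dyneins gave 7 and 2 with the trend on length or on exon share removed and 3 and 8 without Gm26917 and Gm42418 in the library size. Of the olfactory receptor genes, best known from the nose, 927 of 1134 were at 0 in every input, and 2 of the 36 tested were lower (median -0.49). The number lower was 5 without Gm26917 and Gm42418 in the library size, and 6 and 9 with the trend on length or on exon share removed.

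Among genes averaging at least 10 UMIs the lincRNA gene Gm12022 was farthest toward UV: it had 0.13, 0, 0.0724 and 0.367 CPM in formaldehyde inputs 3 to 6 and 1.61, 1.68, 1.14 and 2.24 CPM in UV inputs 3 to 6 (-3.49 ± 0.49, edgeR adjusted p = 4.44e-05). At an average of at least 100 UMIs the noncoding gene farthest toward UV was Gm41031 (chr13:97796162-97825885, minus strand), at 4.05 to 6.09 against 19.3 to 21.5 CPM (-2.07 ± 0.12). Both are without overlap between the groups.

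**Figure D5:**
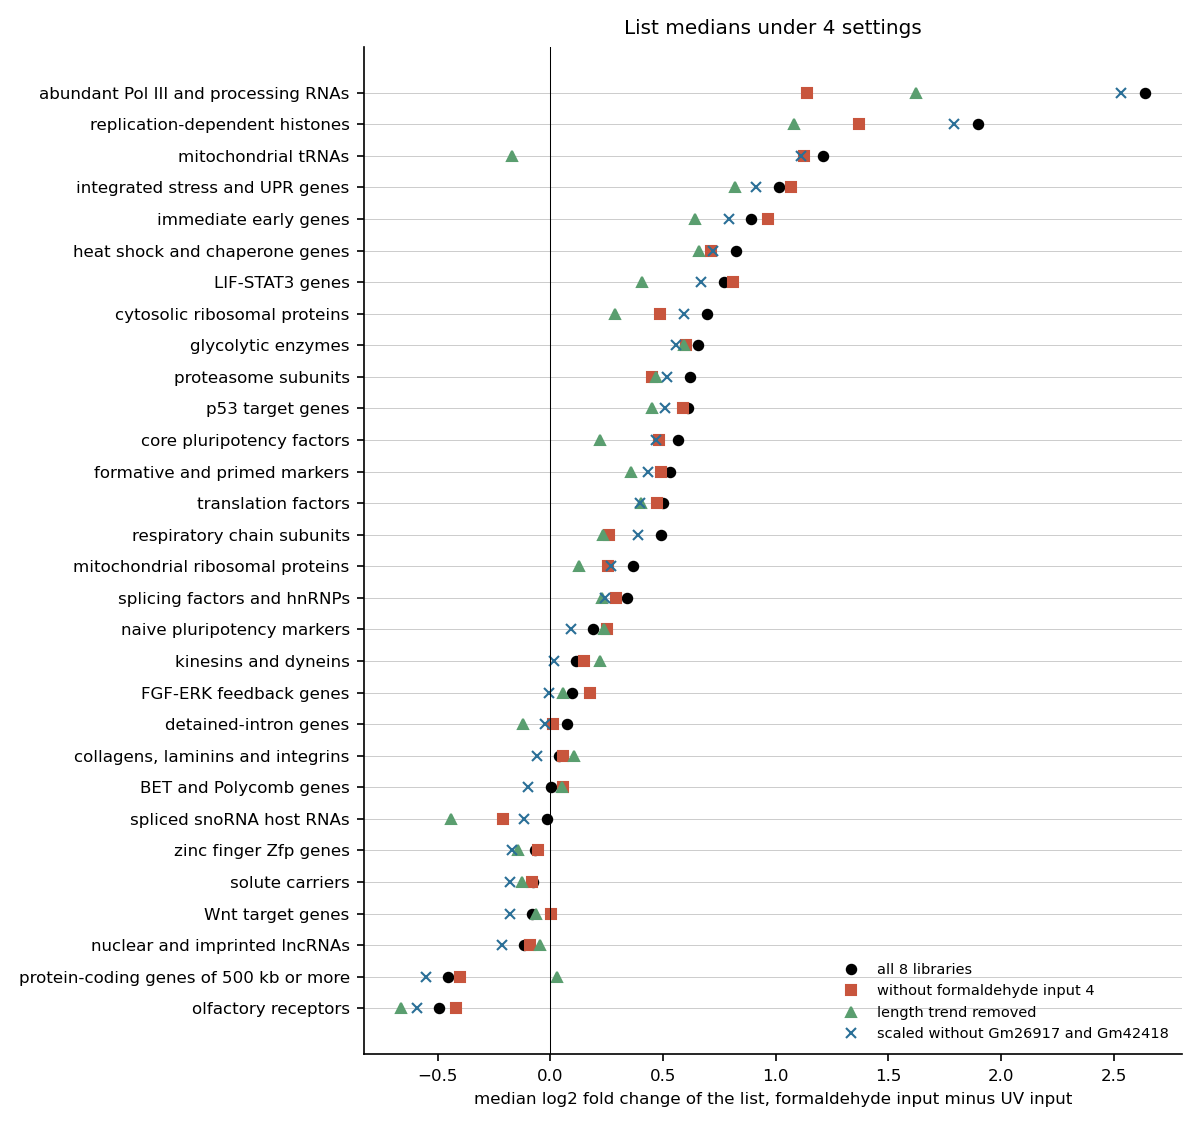
Median log2 fold change (formaldehyde input minus UV input) of each list with 10 or more members tested, with all 8 libraries (circles), without formaldehyde input 4 (squares), with the trend on gene length removed (triangles) and with library sizes that exclude Gm26917 and Gm42418 (crosses). Formaldehyde input 4 moves the Pol III RNAs most, from 2.64 to 1.14, and the length trend the mitochondrial tRNAs, from 1.21 to -0.17.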

How the data were processed

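RNA from the input of formaldehyde- and UV-crosslinked mESC (4 libraries each) was analysed as deposited: 1 table of counts per gene, in which the authors had aligned reads with STAR to mm10, kept unique reads, collapsed UMIs and assigned them to gene bodies of GENCODE vM16 with featureCounts; tool versions and the strand setting are not given in the sources used here. Total UMIs per library set the scale and the precision. A gene was tested if any of the 8 inputs held 3 or more of its UMIs (21637 of 53379), with edgeR 4.0.16 (glmQLFit, glmQLFTest, prior count 0.125) in R 4.3.3, Benjamini-Hochberg adjusted over all genes tested, and called at a fold above 1.5 and adjusted p below 0.05; SE is the log2 fold change over the root of the F statistic. DESeq2 1.42.0, other scalings, filters and trends were alternatives. In simulated counts for this comparison (20651 genes), 50 of 50 genes changed 2-fold up and 48 of 50 changed 2-fold down were called, 20 of 50 changed 1.5-fold, and 0 of 20451 unchanged genes. The changed genes averaged at least 20 UMIs. Both groups were simulated with the same dispersion and without an outlying library, unlike the data (0.0216 in formaldehyde, 0.00166 in UV). The rate of false calls in the data therefore cannot be read from the simulation.

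The members, the 38 gene lists and the alternatives were chosen with earlier results of these data known. Genes were named by rule: by name (Sox2, Pou5f1, Nanog, Malat1, Gapdh, Gm26917, Gm42418), the largest shares of UMIs, the largest differences by class and level, and from each list the 2 highest by CPM and the 2 called members with the largest change; Trib3, Herpud1 and Slc7a11 were named for their promoter letters, and list members that top a level range for that alone. Gene length, exon share and sequences came from GENCODE vM21 and RefSeq (GRCm38); 50604 of 53379 genes matched by identifier and version, and coordinates are printed only for those. The Sox2 immunoprecipitates entered 1 alternative fit and are otherwise not analysed here.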

Additional observations from a re-analysis of the deposited data

Results flagged for a closer look

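The levels of a set of 89 genes and the shares of each gene class were examined. The set is not exactly the genes named above: it holds Hist1h4d but not Hist1h4c (514 CPM in formaldehyde input 4, others 71.7 to 113). Among 280 groups of 4 libraries examined, 23 had a highest or lowest library whose gap to the next, as a share of the group's range, was over Dixon's critical value, where chance flags about 1 in 20. In 18 of these the library was formaldehyde input 4, in 0 another formaldehyde input and in 5 a UV input. Formaldehyde input 4 was the highest for Rn7sk (27880 CPM, others 3466 to 6155), Rpph1 (35.3), Bc1 (220), mt-Tt (5.91), Rps14 (668), Hist1h1a (526), Hist1h4d (810), Hist1h4f (508), Hist4h4 (338) and Hist1h2bb (347), and the lowest for Klf4 (121 CPM, others 205 to 220). By share of UMIs it was the highest for abundant Pol III and processing RNAs (2.83%), misc_RNA genes (2.81%), replication-dependent histones (0.928%), snRNA genes (0.0314%), scaRNA genes (0.0316%), splicing factors and hnRNPs (1.31%) and neuroectoderm markers (0.00202%). Of the UV inputs, number 3 was the highest for Gapdh (170 CPM), Hk1 (39.5 CPM) and mesendoderm markers (0.000562%), number 6 the highest for Znrf3 (633 CPM) and number 4 the lowest for formative and primed markers (0.0324%).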

How the results depend on the processing

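The counts of genes higher and lower in formaldehyde stayed within 1.5 times of 2414 and 2161 under TMM scaling, DESeq2, both changed library sizes, both filters, thinning, a fit over all 16 libraries and each library left out, between 1819 and 2583 higher and 1846 and 2780 lower in all (2161 to 2583 and 1868 to 2204 with a library left out). Removing the trend on gene length left 1455 higher and 2414 lower, and on exon share, an alternative chosen after seeing the data, 1464 and 2116; without a fold threshold 4647 were higher and 3909 lower, and with the fold of 1.5 itself tested 764 and 697. With the replicate number as a block 2328 were higher and 2093 lower, but same-numbered libraries did not deviate together (correlations of -0.27, -0.22, -0.09 and -0.06 for numbers 3 to 6 over 10008 genes, and not every library correlated best with its own number), so that the numbers are not taken as pairs. The difference in genes detected ranged from -25.6 to 196.1 with a library left out, negative without formaldehyde input 4. Among the 89 genes followed through these settings, the mitochondrial tRNA gene mt-Tq alone was counted as reversed, from 1.31 to -0.11 with the length trend removed. Only genes called with all libraries, or called in the opposite direction in a setting, could be counted. Genes near 0 that changed sign without a call were not.

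Among lists with 10 or more members tested and the 5 largest gene classes printed above, the medians that moved by more than the replicate SD with that trend removed were 0.22 for core pluripotency factors, 0.36 for formative and primed markers, 0.41 for LIF-STAT3, 0.64 for immediate early, 0.45 for p53 target, 0.66 for heat shock and 0.82 for integrated stress genes, -0.44 for snoRNA hosts, -0.12 for detained-intron genes, -0.17 for mitochondrial tRNAs, 0.29 for cytosolic and 0.13 for mitochondrial ribosomal proteins, 1.08 for histones, 0.23 for splicing factors, -0.14 for Zfp genes, -0.13 for solute carriers, 0.11 for collagens, 0.22 for kinesins, -0.66 for olfactory receptors, -0.63 for lincRNA genes, -0.51 for antisense genes, -0.56 for processed transcripts, 0.12 for processed pseudogenes and 0.031 for genes of 500 kb or more. Among smaller lists and other classes mitochondrial mRNAs went to -0.59 (0 higher, 4 lower), miRNA genes to -0.62, TEC genes to -0.68 and DNA methylation enzymes to 0.45. With the exon share trend removed those of the first group that moved were 0.265 for core pluripotency factors, 0.19 for formative and primed markers, 0.35 for LIF-STAT3, 0.515 for immediate early, 0.43 for p53 target, 0.62 for heat shock and 0.48 for glycolytic genes, -0.36 for snoRNA hosts, -0.30 for detained-intron genes, 0.65 for mitochondrial tRNAs, 0.12 for mitochondrial ribosomal proteins, 0.37 for translation factors, 0.11 for splicing factors, -0.19 for Zfp genes, -0.15 for solute carriers, 0.087 for collagens, -0.74 for olfactory receptors, -0.42 for lincRNA genes, 0.34 for processed pseudogenes and 0.051 for genes of 500 kb or more. Without Gm26917 and Gm42418 in the library size those of the first group that moved were 0.091 for naive markers, -0.006 for FGF-ERK, 0.51 for p53 target and -0.10 for BET and Polycomb genes, 0.24 for splicing factors, -0.17 for Zfp genes, -0.18 for solute carriers, -0.059 for collagens, 0.015 for kinesins, -0.59 for olfactory receptors, -0.042 for protein-coding, -0.57 for lincRNA and -0.41 for antisense genes and -0.59 for processed transcripts. With the GC trend removed they were 0.37 for core pluripotency factors, 0.21 for FGF-ERK, 0.54 for LIF-STAT3 and 0.47 for glycolytic genes, -0.17 for solute carriers, -0.073 for collagens, -0.32 for olfactory receptors and 0.009 for protein-coding genes, and with TMM scaling 0.015 for collagens. Leaving out a library gave 0.067 to 0.209 for FGF-ERK, 0.71 to 0.87 for heat shock, 0.86 to 1.06 for immediate early and 0.96 to 1.17 for integrated stress genes, 1.08 to 1.54 for mitochondrial tRNAs, -0.125 to -0.068 for solute carriers, 0.002 to 0.088 for collagens, -0.56 to -0.39 for olfactory receptors, -0.52 to -0.45 for lincRNA and -0.42 to -0.28 for antisense genes. The cause of these shifts was not tested beyond what each setting removes by construction. Depth limits the genes with few UMIs, among them mitochondrial tRNAs and lineage markers; intervals cover counting error and plate spread, and crosslinker and plate cannot be told apart.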
